A study of Mus musculus with 4 samples.

Results

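The genes described here carry glucose into the muscle cell and through glycogen and glycolysis. They are Slc2a1, Slc2a4, Hk2, Pygm, Pgam2, Eno3 and Ldha, and the rule took each probe set whose platform annotation gives one of these symbols alone. This gave 9 probe sets for 7 genes, of 12488 probe sets and 8251 genes on the array. Messenger RNA came from the gastrocnemius of the calf, in which fast fibres prevail, and was measured on Affymetrix MG-U74Av2 arrays with 1 array per group, each a pool of 10 mice. The 4 groups were adrenalectomized mice 1 week after surgery, adrenalectomized mice given 0.1 mg of cortisol intraperitoneally and taken 3 h later, adrenalectomized mice taken 24 h after the same dose, and intact mice. Every injected group thus also lacked its adrenal glands. The interval after surgery is given for the uninjected adrenalectomized group only, so it cannot be compared between the groups. A vehicle group, the strain and the age of the mice are not given in the labels. Signals are in linear units of the MAS software, and any value under 100, the floor, was raised to 100 before log2 ratios were taken.

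With 1 array per group there was no replicate check and no test, and each comparison sets 1 pool against another. The comparisons share arrays, and the adrenalectomized array enters each of the 3 main ones (adrenalectomized against intact, and 3 h and 24 h against adrenalectomized). Median signals were 189.3 to 199.6 on the 4 arrays, and 63.0% to 64.4% of probe sets reached the floor. Each array was also washed in a fluidics module of its own, 4 in all, so the module cannot be told apart from the group or the pool. The only error measure was the disagreement between 2 probe sets of 1 gene, given as the SD of a log2 ratio, which holds no variation between mice. For genes whose sets both averaged 1000 or more it was 0.16 between adrenalectomized and intact muscle. Against adrenalectomized muscle it was 0.16 at 3 h and 0.21 at 24 h. For genes with a set under 300 it was 0.29, 0.33 and 0.36 in the same order. A gene was counted as higher or lower when its ratio was at least 1.5-fold. Less RNA per fibre and fewer fibres of a type cannot be told apart in pooled whole muscle.

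Muscle takes up glucose through GLUT4, which insulin and contraction bring to the cell surface, and to a lesser degree through GLUT1, which sits there at rest. Hexokinase traps the sugar as its phosphate, which is stored as glycogen or passed down glycolysis to pyruvate and, in fast fibres, largely to lactate. Glucocorticoids are known to oppose insulin in this tissue, with lower glucose uptake and use. The members include the muscle isoforms of several of these steps, and fast fibres make their messengers in large amounts.

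Messengers of 6 of the 7 members, Slc2a4, Hk2, Pygm, Pgam2, Eno3 and Ldha, differed little between the 4 arrays. Their highest array stood between 1.02-fold (Eno3) and 1.19-fold (Pgam2) above their lowest, and none of their 36 ratios in 6 comparisons reached 1.5-fold. These ratios come from only 4 arrays and are not independent. Of the 239 genes with a mean signal of 5000 or more, as theirs was, 0% to 3.35% passed in each comparison. The absence of calls is thus near the background of their brightness. Slc2a1 alone passed that size: it was 1.74-fold higher in adrenalectomized than in intact muscle and at least 2.08-fold lower 24 h after cortisol than after adrenalectomy alone. Its signals lay close to the floor. Over all genes, 2.67% were at least 1.5-fold higher in the first of these comparisons and 4.51% at least 1.5-fold lower in the second. On the same arrays 8 of 11 slow fibre genes were at least 1.5-fold lower at 3 h and at 24 h than after adrenalectomy alone, and 0 of 14 fast fibre genes passed that size. Over all genes 9.82% passed it in either direction at 3 h and 10.0% at 24 h. Most of the fast fibre genes had a mean signal of 5000 or more, where 2.09% and 2.93% of the 239 genes passed.

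**Figure D1:**
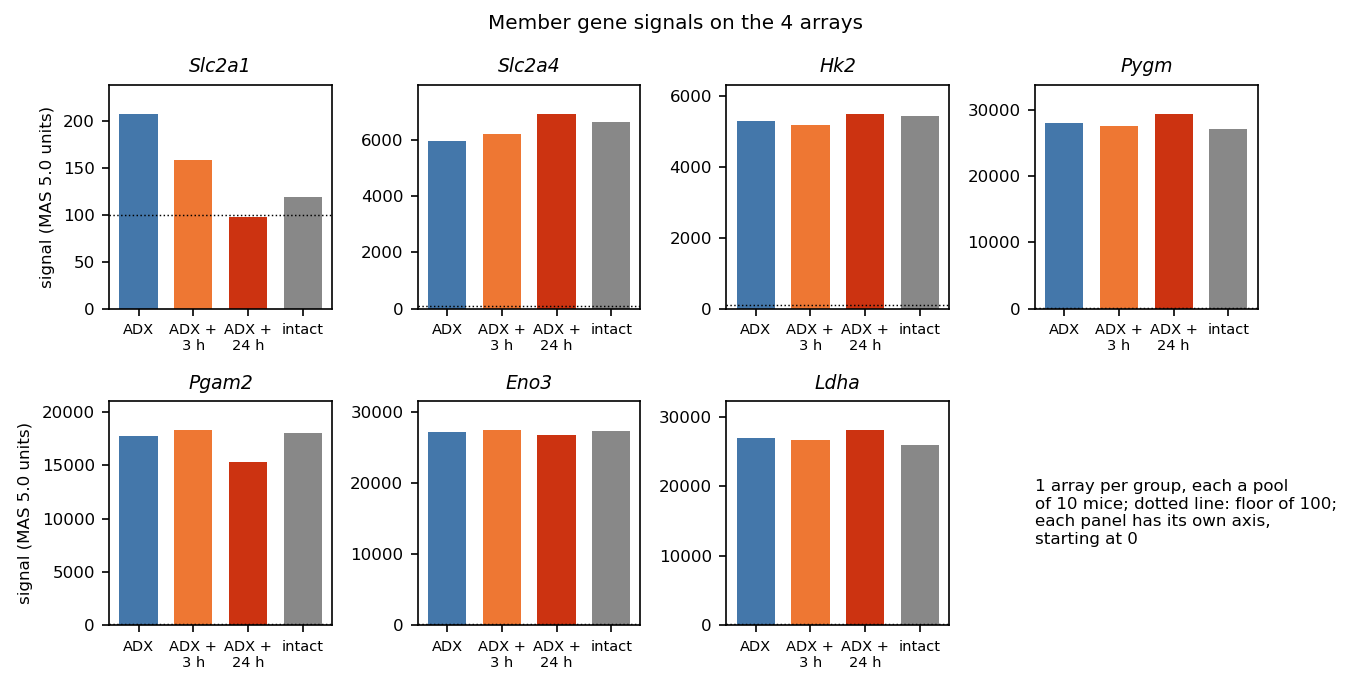
Signals of the 7 member genes in linear MAS units, 1 bar per array (adrenalectomized, 3 h and 24 h after cortisol, intact), each panel with its own axis from 0 and a dotted line at the floor of 100. Slc2a1 runs from 97.8 to 208, while Eno3 stays between 26741 and 27394. The second probe sets of Slc2a4 and Hk2, below the floor throughout, are not drawn.

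The upstream sequences of 3 members are printed: Slc2a1, which passed 1.5-fold, and Pgam2 and Ldha, which stayed within it. Pgam2 had the widest range of the other 6 members, at 1.19-fold, and Eno3, the steadiest, is not printed. The Pgam2 and Ldha windows also hold many of the motif matches given below, so the 3 are no even sample of the members. Each sequence is the 250 bases before the RefSeq start on GRCm38.p6, 5′ to 3′ on the gene's strand. Capitals mark matches on either strand to the core of the hypoxia response element (ACGTG), to the short site of the glucocorticoid receptor (AGAACA) or to the site of MEF2, a transcription factor of muscle. The Slc2a1 window is chr4:119108495-119108744 on the plus strand, the Pgam2 window chr11:5803797-5804046 on the minus strand, and the Ldha window chr7:46845554-46845803 on the plus strand.
Slc2a1: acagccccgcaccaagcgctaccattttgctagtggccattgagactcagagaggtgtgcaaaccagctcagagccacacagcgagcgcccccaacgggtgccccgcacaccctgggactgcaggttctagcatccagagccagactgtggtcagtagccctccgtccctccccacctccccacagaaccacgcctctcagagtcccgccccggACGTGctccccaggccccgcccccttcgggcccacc
Pgam2: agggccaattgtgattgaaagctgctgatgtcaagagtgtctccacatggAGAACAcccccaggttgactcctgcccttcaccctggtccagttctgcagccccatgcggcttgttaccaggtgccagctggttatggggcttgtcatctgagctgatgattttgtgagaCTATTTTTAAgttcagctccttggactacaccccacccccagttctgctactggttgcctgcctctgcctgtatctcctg
Ldha: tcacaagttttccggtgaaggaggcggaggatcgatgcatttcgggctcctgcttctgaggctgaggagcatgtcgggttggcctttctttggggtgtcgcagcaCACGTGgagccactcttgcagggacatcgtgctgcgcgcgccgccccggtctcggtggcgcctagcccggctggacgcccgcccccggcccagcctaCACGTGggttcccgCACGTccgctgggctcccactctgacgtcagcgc

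Of the 7 members, 6 had a window in the RefSeq table, with 7 windows in all since Ldha had 2, and Slc2a4 had none. The full glucocorticoid response element (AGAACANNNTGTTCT) matched 0 of these 7 windows, and it matched 3 of all 32817 windows of the same length, 0.00914%. Pgam2 held the only short site, 200 bases before the start, in a motif found in 16.1% of all windows. Pgam2 also held the only MEF2 match, 80 bases before the start, against 1.69% of all windows. The hypoxia core, found in 16.6% of all windows, matched at 3 places in the first Ldha window, at 2 in Hk2, and at 1 each in Slc2a1 and Pygm. At 2 of the Ldha places the core read on both strands and overlapped an E-box (CANNTG), a motif of 66.2% of all windows. E-boxes, which are not marked by capitals as such, also matched 5 times in Pgam2, 2 times each in Pygm and the second Ldha window, and 1 time in Eno3. The Slc2a1 and Hk2 windows held none. The TATA box (TATAAA) matched none of the members' windows and 12.4% of all. These are letter matches only and say nothing about binding.

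Slc2a1 encodes GLUT1, the transporter of basal glucose uptake, which endothelium and nerve sheaths also use. Its probe set read 208 after adrenalectomy, 159 at 3 h, 97.8 at 24 h and 119 in intact muscle. The adrenalectomized array was highest, and the 24 h array fell just below the floor. Adrenalectomized muscle was 1.74-fold higher than intact muscle, a log2 ratio of 0.80 against an error SD of 0.29. In this comparison 1 of the 7 members was at least 1.5-fold higher, against 2.67% of all 6112 genes and 5.82% of the 1889 genes whose mean signal was 100 to 300, as that of Slc2a1 was. The log2 ratio was -0.39 for 3 h against adrenalectomized, within 1.5-fold.

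At 24 h Slc2a1 was at least 2.08-fold lower than in adrenalectomized muscle and at least 1.59-fold lower than at 3 h. The count of members at least 1.5-fold lower was 1 of 7 in both comparisons. Against adrenalectomized muscle the share was 4.51% of all genes and 7.96% of those of 100 to 300. Against 3 h it was 5.88% of all genes and 9.77% of those of 100 to 300. In the order adrenalectomized, 3 h, intact, 24 h, the first 2 gaps were larger than the error SD and the gap between intact and 24 h, at 0.25, was smaller. That SD averages over a brighter and a dimmer set, so it may understate the error of a set as dim as that of Slc2a1. With the floor at 200 the log2 ratio was 0.05 for adrenalectomized against intact and -0.05 for 24 h against adrenalectomized, so both calls rest on signals between 100 and 208. The call for 24 h against 3 h was the least stable. Its log2 ratio was 0 with the floor at 200 and -0.58, just short of 1.5-fold, with scaling to ribosomal protein genes. It stayed past 1.5-fold under the other 6 of 8 alternatives, of which only the remaining scalings could move it by much.

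Markers of blood and vessel cells shared part of this order. Summed over the 5 erythroid markers on the array, the signal was 8634 in adrenalectomized, 9252 at 3 h, 8389 at 24 h and 6643 in intact muscle. Most of this sum was Hba-a1 alone, which read 6496, 6956, 6115 and 5246 in the same order. Of the 4 erythroid markers that reached the floor, 1, the haem synthesis gene Alas2, was at least 1.5-fold higher after adrenalectomy, and Epb42 stayed below the floor on all arrays. The sum over 10 endothelial markers was 7992, 8237, 8119 and 6892 in the same order. The brightest of them, Cdh5, read 1764, 2257, 2274 and 1459. The endothelial genes did not move together. At 3 h against adrenalectomized 2 of 10 were at least 1.5-fold higher (Tie1, Flt1) and 2 lower (Kdr, Tek), against 9.82% of all genes in either direction. The dimmer probe sets of Tie1 and Flt1 had log2 ratios of -0.11 and -0.20 there. Both sums were lowest in intact muscle and neither was lowest at 24 h, where Slc2a1 was. Their part in the Slc2a1 values was not tested.

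The 5 genes whose 4-array profile lay nearest to that of Slc2a1, among 5452 genes at or above the floor on every array, were Lox, Aldoart2, Tubb4a, Sh3bp1 and Chrna1. Likeness was the root mean square difference of centred log2 signals over 4 arrays, and it was 0.08 for Lox and 0.12 for Chrna1. Lox, a crosslinking enzyme of collagen, read 378 after adrenalectomy, 319 at 3 h, 207 at 24 h and 247 in intact muscle. All 5 were highest in adrenalectomized and lowest in 24 h muscle, as genes chosen for likeness to Slc2a1 would be. With so few arrays many genes share a profile, and the likeness is a description only.

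Slc2a4 encodes GLUT4, the insulin-responsive transporter of muscle and fat. It read 5963 after adrenalectomy, 6193 at 3 h, 6931 at 24 h and 6619 in intact muscle. The 24 h array was highest and the adrenalectomized array lowest. The log2 ratio was -0.15 for adrenalectomized against intact. Against adrenalectomized muscle it was 0.05 at 3 h and 0.22 at 24 h. The last, a difference of 16.2%, was about as large as its error SD of 0.21 and inside the range of -0.32 to 0.25 that held the middle 90% of the 239 genes with a mean signal of 5000 or more. No neighbours in the order of the 4 arrays differed by more than the error SD. The second Slc2a4 probe set read 60.5, 47.4, 91.5 and 54.9 in the order adrenalectomized, 3 h, 24 h and intact, below the floor on all arrays, so it gave no ratio. Fat cells make GLUT4 too: the 6 adipocyte markers at the floor after adrenalectomy or in intact muscle had a median log2 ratio of -0.24 between these groups. The adipocyte median was 0.02 over 5 genes at 24 h against adrenalectomized, where the Slc2a4 ratio was 0.22. At 24 h against intact it was -0.18 over 6 genes, where the Slc2a4 ratio was 0.07. Single adipocyte genes went both ways, from -0.34 (Retn) to 0.36 (Lep) in the first and from -0.79 (Retn) to 0.38 (Lep) in the second. The part of fat cells in the Slc2a4 ratios was not tested.

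Hk2 encodes the insulin-responsive hexokinase of muscle. Its bright probe set read 5289.8 after adrenalectomy, 5185 at 3 h, 5506 at 24 h and 5451 in intact muscle. The 4 arrays spanned 1.06-fold in all, and each gap between neighbours was below the error SD. The other Hk2 probe set read at most 12.8 on any array and gave no ratio. Hk1, the hexokinase of most tissues, read 2792 after adrenalectomy, 2679 at 3 h, 2458 at 24 h and 2365 in intact muscle, so its log2 ratios also stayed within 1.5-fold.

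Pygm encodes muscle glycogen phosphorylase, which releases glucose units from glycogen and is the enzyme missing in McArdle disease. It read 28054 after adrenalectomy, 27586 at 3 h, 29412 at 24 h and 27085 in intact muscle, and its widest gap, 24 h against intact, was 8.59%. That gap was a log2 ratio of 0.12 against an error SD of 0.22. The brain isoform gene Pygb read 57.1, 133, 163 and 102 in the same order and was at least 1.63-fold higher at 24 h than after adrenalectomy alone, near the floor.

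Pgam2 encodes the muscle phosphoglycerate mutase, a lower step of glycolysis. It read 17733 after adrenalectomy, 18309.7 at 3 h, 15329 at 24 h and 18088 in intact muscle. The 24 h array stood apart at the low end, and the other 3 lay within 3.25% of each other. At 24 h the difference was -13.6% from adrenalectomy alone (log2 ratio -0.21, error SD 0.21), -16.3% from 3 h (-0.26, error SD 0.19) and -15.3% from intact muscle (-0.24, error SD 0.22). Each of the 3 ratios was the lowest among the 43 genes with a mean signal of 15000 or more. The direction was the same under all 8 alternatives to the processing, of which only the 3 other scalings could move these ratios by much. The 3 ratios share the 24 h array and are not independent. The isoform gene Pgam1 of other tissues had a log2 ratio of -0.08 at 24 h against adrenalectomized.

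Eno3 encodes the muscle enolase, the next step. It read 27205 after adrenalectomy, 27394 at 3 h, 26741 at 24 h and 27229.5 in intact muscle. With its highest array 1.02-fold above its lowest it was the steadiest of the members. The neuronal enolase gene Eno2 read 165, 121, 94.3 and 159 in the same order and was at least 1.65-fold lower at 24 h than after adrenalectomy alone, near the floor.

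Ldha encodes the lactate dehydrogenase subunit of fast muscle, which turns pyruvate into lactate. It read 26976.5 after adrenalectomy, 26612 at 3 h, 28073 at 24 h and 25955 in intact muscle, and no neighbours in this order differed beyond the error SD. Ldhb, the subunit of oxidative fibres and heart, read 1224, 1239, 1049 and 1481 in the same order. Its log2 ratio was -0.50 for 24 h against intact, the widest of its gaps and within 1.5-fold.

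**Figure D2:**
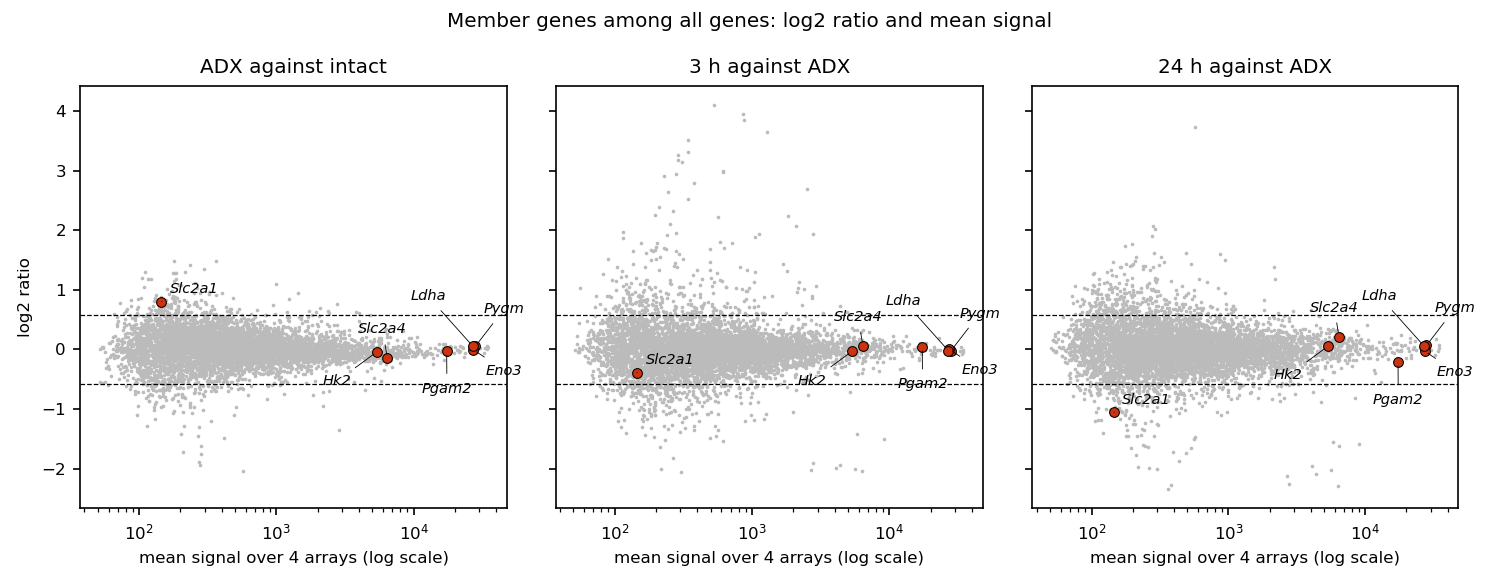
Log2 ratio against mean signal over the 4 arrays (log scale) for genes at or above the floor on either array of the comparison (grey) and the 7 members (red). Grey genes of very low mean signal are not drawn. Panels set adrenalectomized against intact muscle, then 3 h and 24 h against adrenalectomized muscle. Dashed lines mark 1.5-fold. Slc2a1 lies at the dim end at 0.80, -0.39 and -1.05, and the other 6 lie at the bright end between -0.21 and 0.22. ADX in the panel titles stands for adrenalectomized muscle.

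Over the 7 members the median log2 ratio was within 0.01 of 0 between adrenalectomized and intact muscle. Against adrenalectomized muscle it was -0.02 at 3 h and 0.06 at 24 h. Over all genes compared it was 0.01, -0.02 and 0.01 in the same order. At 3 h 0 of the 7 members passed 1.5-fold against adrenalectomized muscle, where 9.82% of 6168 genes did, and against intact muscle, where 9.95% of 6162 genes did. The count was also 0 of 7 for 24 h against intact, where 9.99% of 6219 genes passed. The share also depends on brightness: of the 239 with a mean signal of 5000 or more, the share was 0% between adrenalectomized and intact muscle. Against adrenalectomized muscle it was 2.09% at 3 h and 2.93% at 24 h. It was 0.418% for 24 h against 3 h, 3.35% for 24 h against intact and 2.09% for 3 h against intact, and over all genes 11.6% passed in 24 h against 3 h. A count of 0 among 6 bright members is thus near the background of genes of their brightness.

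The signals of Pygm, Eno3 and Ldha were 74.3% to 81.7% of the highest signal on their array outside the control probe sets, and those of Pgam2 42.6% to 53.0%. Of the 43 genes with a mean of 15000 or more, 0 passed 1.5-fold in any of the 6 comparisons. Whether differences in this range were compressed was not tested. Slc2a4 and Hk2 stood at 15.0% to 19.3% of that highest signal, and compression of their differences was not tested either.

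Fibre type genes were measured beside the members because glycolytic messengers are rich in fast fibres. Against adrenalectomized muscle the median log2 ratio of the 11 slow fibre genes was -1.91 at 3 h and -1.96 at 24 h, and 8 of 11 were at least 1.5-fold lower at each time. Among them Myh7, the slow myosin gene, read 9419.7 after adrenalectomy, 2342 at 3 h and 2325 at 24 h. The 14 fast fibre genes at the floor had medians of -0.05 and 0.03, with 0 past 1.5-fold, and Myh2 was below the floor on all arrays. Most of the 14 had a mean signal of 5000 or more, where 2.09% and 2.93% of 239 genes passed. The count of 0 is thus near the background of their brightness. Atp2a1, Myh4 and Tnnt3 each held the highest signal of an array outside the control probe sets, and compression of their differences was not tested. The part of fibre type in the members' values was not tested. Epidermis and hair genes had a median of 2.87 at 3 h and 0.95 at 24 h, over 14 genes, with Krt5, Krt14 and Krt15, keratins of the basal layer, below the floor on all arrays, and hepatocyte genes had medians of -0.86 and -1.19 over 8 genes, with Fgb and Fgg below the floor on all arrays. The summed signal of the 7 members was 111429 after adrenalectomy, 111437 at 3 h, 112089 at 24 h and 110547 in intact muscle, while that of the epidermis and hair list was 3160.1, 15186, 5341 and 3079 and that of the hepatocyte list 3230.2, 1549, 1111 and 4685.

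**Figure D3:**
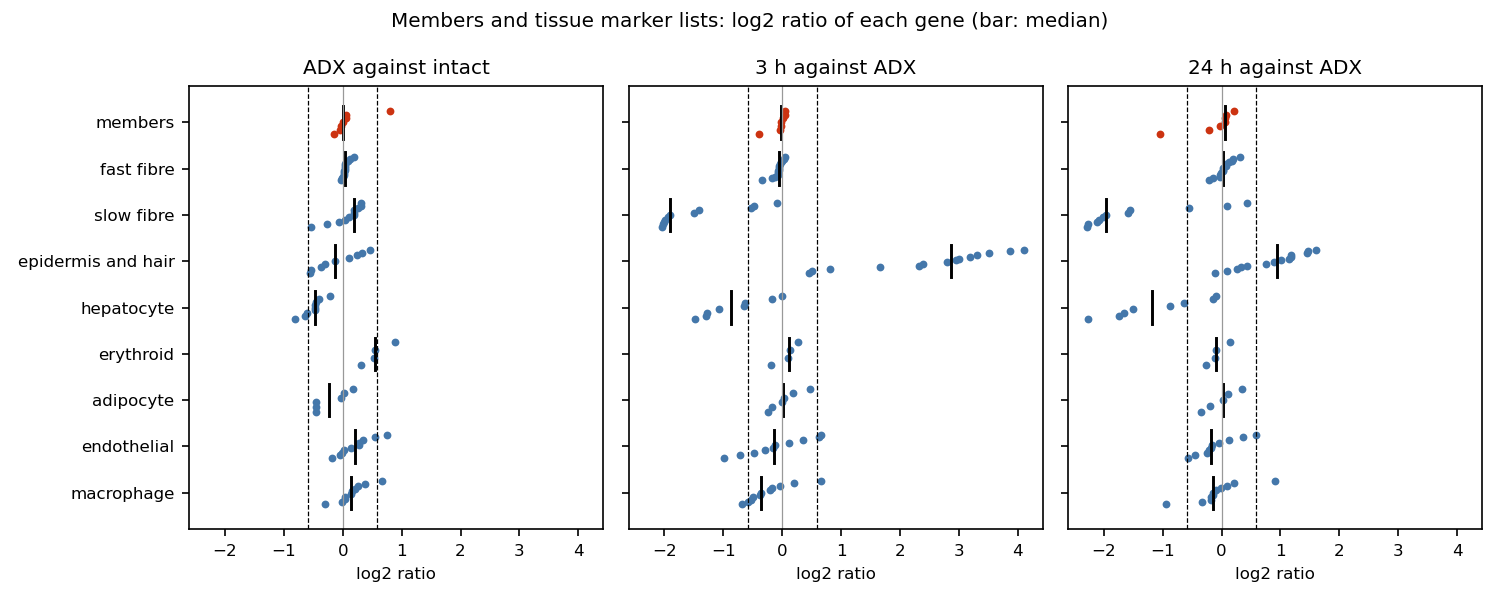
Log2 ratio of each gene (points) and list median (black bar) for the members (red) and 8 tissue marker lists (blue) in the 3 comparisons, with dashed lines at 1.5-fold. The members' medians lie between -0.02 and 0.06, while the slow fibre median is -1.91 at 3 h and -1.96 at 24 h. ADX in the panel titles stands for adrenalectomized muscle.

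The wider pathway was described by 11 lists of transport, glycogen, glycolysis, lactate, pyruvate, gluconeogenesis, GLUT4 trafficking and regulator genes, with 81 of 118 listed genes on the array. For adrenalectomized against intact 3 of 72 genes at the floor were higher and 3 lower, 8.33% in all, where 4.91% of all genes passed. At 3 h against adrenalectomized 6 of 73 were higher and 2 lower, 11.0%, against 9.82% of all genes. At 24 h against adrenalectomized 3 of 70 were higher and 4 lower, 10.0%, against 10.0% of all genes. The pathway as a whole thus passed at a share near the background at 3 h and 24 h.

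Glycogen synthesis genes differed little with 1 exception. Ppp1r3c, which brings a phosphatase to glycogen and so favours its synthesis, read 2399 after adrenalectomy, 5029 at 3 h, 1754 at 24 h and 2523 in intact muscle. The 3 h array stood above the others: it was 2.10-fold higher than adrenalectomized muscle, and 24 h was 2.87-fold lower than 3 h. The glycogen synthase gene Gys1 read 6689, 6156, 6525 and 7040.3 in the same order. The other 5 of the 6 synthesis genes had log2 ratios between -0.21 and 0.24 in the 3 main comparisons.

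Of the 8 glycogen breakdown genes at the floor, Pygb alone passed 1.5-fold in a main comparison. Phka1, a subunit of the kinase that activates the phosphorylase, had log2 ratios of -0.17, -0.03 and -0.02 between adrenalectomized and intact muscle and at 3 h and 24 h against adrenalectomized muscle. Phkg1, the muscle catalytic subunit of that kinase, had a ratio of 0.07 after adrenalectomy and lay within 0.01 of 0 at both times after cortisol. Among the dimmer subunit genes, Phka2 had a log2 ratio of 0.57 for adrenalectomized against intact, and Phkg2 had 0.44 there, -0.41 at 3 h against adrenalectomized and 0.61, or 1.53-fold, at 24 h against 3 h.

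The phosphofructokinase gene Pfkm read 22704 after adrenalectomy, 22471 at 3 h, 23441 at 24 h and 22295 in intact muscle. Pfkfb3, whose product makes the sugar phosphate that activates phosphofructokinase, read 374, 267, 639 and 585 in the same order. It was 1.56-fold lower in adrenalectomized than in intact muscle, and 1.71-fold higher at 24 h than after adrenalectomy alone. Its second probe set went the other way in both comparisons (log2 ratios 0.47 and -0.20), so the direction of Pfkfb3 there depends on the probe set. At 24 h against 3 h both sets were higher, by 2.40-fold and at least 1.28-fold.

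Fbp2, the muscle fructose bisphosphatase that opposes phosphofructokinase, read 595 after adrenalectomy, 391 at 3 h, 713 at 24 h and 671 in intact muscle. It was lowest at 3 h, 1.52-fold lower than after adrenalectomy alone, and 1.82-fold higher at 24 h than at 3 h. Fbp1, the liver enzyme, was above the floor only at 3 h, with a signal of 170.3. The hepatocyte list had a median of -0.86 at 3 h against adrenalectomized, and a part of liver RNA in the Fbp1 signal was not tested.

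Lower glycolysis beside the members held Pgk1 with log2 ratios of 0.09, 0.08 and within 0.01 of 0 in the 3 main comparisons, and Pkm with ratios between -0.04 and -0.01 by its brighter probe set. The second Pkm set, also bright, had -0.21, -0.37 and 0.19 in the same order and 0.56 for 24 h against 3 h, all within 1.5-fold. Gapdh, read only by control probe sets left out of the counts, had log2 ratios between -0.10 and 0.09 in these comparisons over its 3 antisense-target sets. The lactate transporter gene Slc16a1 was at least 1.56-fold lower at 24 h than after adrenalectomy alone, with signals of 99.9 and 156.0.

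Pyruvate oxidation was marked by Pdk4, which encodes the kinase that shuts pyruvate dehydrogenase and so spares glucose. It read 7443 after adrenalectomy, 9322 at 3 h, 2425 at 24 h and 6455 in intact muscle. The 24 h array was far below the others, 3.07-fold lower than after adrenalectomy alone. The subunit gene Pdha1 of the enzyme itself had log2 ratios of 0.03, -0.04 and -0.07 in the 3 main comparisons. Gpd1, which links glycolysis to glycerol and fat synthesis, was 1.44-fold lower in adrenalectomized than in intact muscle, with signals of 5032 and 7228, and 1.59-fold lower at 24 h than in intact muscle.

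**Figure D4:**
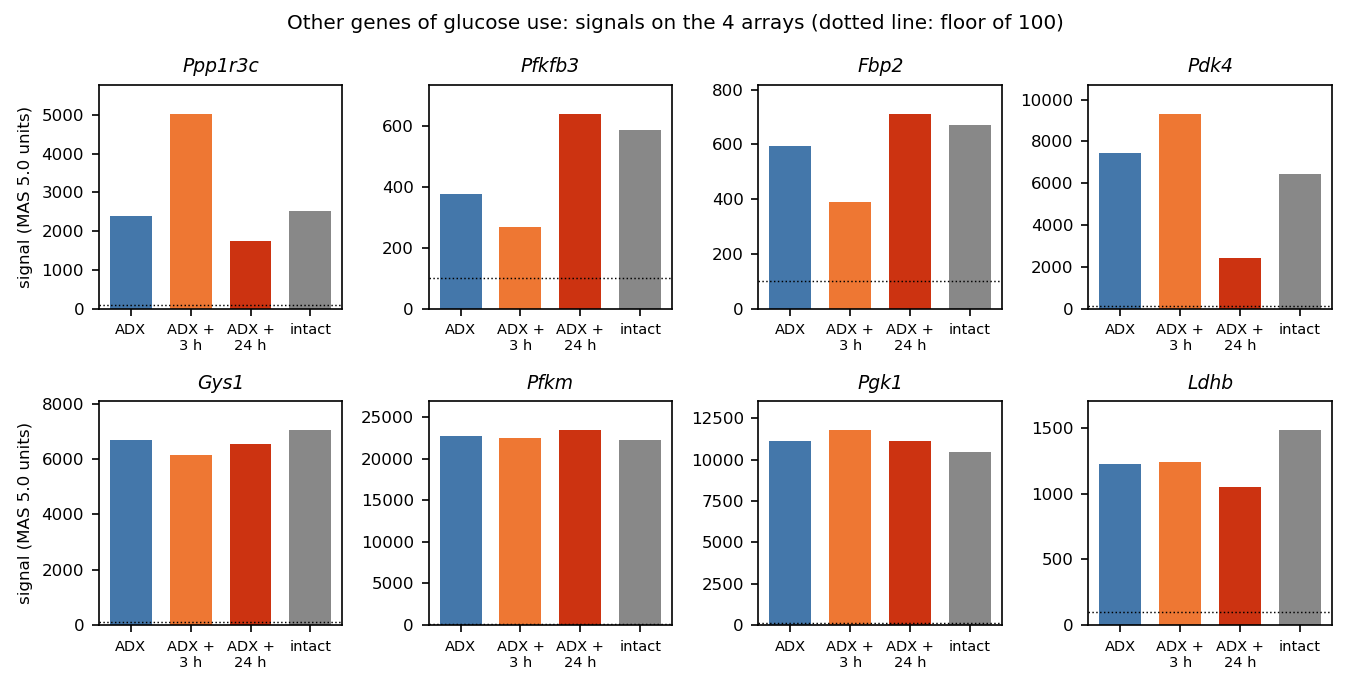
Signals in linear MAS units of 8 further genes of glucose use, 1 bar per array (adrenalectomized, 3 h and 24 h after cortisol, intact), each panel with its own axis from 0. Ppp1r3c is highest at 3 h (5029), Fbp2 lowest at 3 h (391) and Pdk4 lowest at 24 h (2425), while Pfkm stays between 22295 and 23441.

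Of the remaining transporter genes, Slc2a8 read 575 after adrenalectomy, 504 at 3 h, 523 at 24 h and 514 in intact muscle, within 1.5-fold throughout. Slc2a2 was below the floor on all arrays, and Slc2a3 and Slc2a5 read at most 235 on any array. Slc2a3, the neuronal transporter, was at least 1.83-fold higher in adrenalectomized than in intact muscle by 1 probe set, and its other set had a log2 ratio of -0.24. Slc2a5, the fructose transporter, reached the floor only in intact muscle and was at least 1.93-fold lower after adrenalectomy. Pck2, a mitochondrial enzyme of gluconeogenesis, was at least 1.82-fold higher at 3 h than after adrenalectomy alone, with signals of 182 and 84.6.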

How the data were processed

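Total RNA from gastrocnemius muscle, pooled over 10 mice per group, was hybridized to 1 MG-U74Av2 array for each group, as the labels state. The deposited values are linear intensity signals per probe set that the authors computed with MAS 5.0, per the labels; other settings are not given in the sources used here. Instrument settings (deposited as other text fields) gave 1 chip lot, 1 hybridization day and 1 scan day. Each array was scaled to a trimmed mean of 500 over the 12422 probe sets that are no controls (2% left out at each end), signals below 100 were set to 100, and log2 ratios were taken with Python 3.11.15 and pandas 2.3.3. Gene symbols came from the platform annotation (10833 probe sets with 1 symbol, 396 with several, 1193 with none), and the brightest probe set stood for a gene. All members matched the GRCm38.p6 gene table by gene ID. Where the dimmer signal was below the floor, the fold is a lower bound.

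With 1 array per group the differences have no replicate check, and the number of arrays limits the precision. The 8 alternatives were 3 other scalings, no rescaling, floors of 50 and 200, the mean over a gene's probe sets, and leaving out probe sets with a suffix for shared probes. Named beside the members are pathway genes past 1.5-fold in a main comparison (adrenalectomized against intact, and 3 h or 24 h against adrenalectomized), the members' isoforms, and further genes of the lists chosen after their values were seen (steady examples, Gpd1, Slc2a8, Phka2, Phkg2 and Vamp2). The members and lists were chosen with earlier results of these data known. The comparisons share arrays and are not independent.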

Additional observations from a re-analysis of the deposited data

Results flagged for a closer look

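Genes of glucose use that differed from adrenalectomized muscle in opposite directions at 3 h and 24 h, each time by more than the error SD over all genes with 2 probe sets (0.28 and 0.32), were Pdk4, Pfkfb3 and Ppp1r3c. The log2 ratio of Pdk4 was 0.32 at 3 h and -1.62 at 24 h. That of Ppp1r3c was 1.07 at 3 h and -0.45 at 24 h. Pfkfb3 had -0.49 at 3 h and 0.77 at 24 h by its brighter probe set, and -0.56 and -0.20 by its other set. With 1 array per time the difference between times was not tested. None of the 7 members met this description.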

How the results depend on the processing

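The 6 bright members stayed within 1.5-fold in every comparison under all 8 alternatives, with log2 ratios between -0.31 and 0.25. Their signals were far above any floor used, so the other floors could not move these ratios. Slc2a1 stayed past 1.5-fold in the same direction under 7 of 8 between adrenalectomized and intact muscle and at 24 h against adrenalectomized. The exception was the floor at 200 (0.05 and -0.05). Of these 7, only the other scalings could move the 2 ratios by much. Slc2a1 has 1 probe set, without a suffix for shared probes, and the scale factors of the arrays were nearly equal. Its signals were also above the floor of 50. The 7 is thus no count of independent checks. Scaling to ribosomal protein probe sets moved the median of all genes to -0.14 at 3 h against adrenalectomized and to 0.12 at 24 h against 3 h. Then 0 members passed in 24 h against 3 h, and 5 pathway genes were lower at 3 h against adrenalectomized. That last count was 1 under median scaling and 1 with the floor at 200. Pathway genes higher at 24 h against intact, 4 in the processing reported, were 2 under median scaling, 1 under quantile normalization and 1 with the floor at 200. With the floor at 50, 6 pathway genes were lower in adrenalectomized against intact, 11 higher at 3 h and 5 higher at 24 h against adrenalectomized, and 7 lower at 24 h against intact. With the floor at 200 the counts of members past 1.5-fold were 0 in all comparisons, and those of pathway genes were 1 higher and 1 lower in adrenalectomized against intact and in 24 h against adrenalectomized, 2 lower at 24 h against intact, and 3 higher and 2 lower at 3 h against intact. A higher floor sets more dim genes equal by construction. The cause of the other shifts was not tested. No paired analysis was possible because each group had 1 array.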

Other observations

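Genes that move GLUT4 to the cell surface and transcription regulators of glucose use were measured beside the members. Of 7 trafficking genes at the floor, Cbl, an adaptor and ubiquitin ligase of insulin signalling, read 138 after adrenalectomy, 310 at 3 h, 292 at 24 h and 271 in intact muscle. The adrenalectomized array alone was low, 1.96-fold below intact muscle, and 3 h and 24 h were 2.24-fold and 2.11-fold higher than it. Snap23, a membrane fusion gene, was 1.51-fold higher in adrenalectomized than in intact muscle (350.4 and 232). That call held under 6 of 8 alternatives, and the log2 ratio was 0.54 under median scaling and 0.55 under quantile normalization, below 1.5-fold. Only the other scalings could move this ratio by much, as both signals were above every floor used. By their brightest probe sets the other 5 stayed within 1.5-fold in the 3 main comparisons. A dimmer probe set of Vamp2, a vesicle fusion gene and one of these 5, read 229 after adrenalectomy, 159.6 at 3 h, 111 at 24 h and 233 in intact muscle, with a log2 ratio of -1.05 at 24 h against adrenalectomized, where its brighter set had 0.13.

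Of 13 regulator genes at the floor, Foxo3 and Nr4a1, transcription factor genes tied to fasting and to exercise, were 1.67-fold and 2.03-fold higher at 3 h than after adrenalectomy alone. Nr4a1 read 1785 after adrenalectomy, 3628 at 3 h, 2067 at 24 h and 2022 in intact muscle. Ppargc1a, the coactivator gene of oxidative metabolism, was at least 1.87-fold lower at 3 h than after adrenalectomy alone, with signals of 78.4 and 187. The MEF2 genes Mef2a, Mef2c and Mef2d, whose products are known to act on the promoters of Slc2a4 and Pgam2, had log2 ratios between -0.18 and 0.10 by their brightest probe sets in the 3 main comparisons.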
